A study of Mus musculus with 6 samples.

Results

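The comparison described here is the differentiation of mouse embryonic stem cells (ESCs) that carry the acidic patch mutant of the histone variant H2A.Z (AP3). One RNA-Seq library of undifferentiated AP3 ESCs (D0) is set against 1 library of AP3 cells after 3 days of differentiation (D3). Its members are the genes with at least 1 RPKM (reads per kilobase of transcript, scaled to the mapped reads of the library) in either library, which are 12204 of the 21639 genes listed. For each gene the change is log2((D3 + 1)/(D0 + 1)) of the RPKM values, so a value of 1 is a 2-fold rise on that scale and the fold of low genes is understated. At the edge of the filter, Slc18a2 entered with 1.00 RPKM at D3, and Serpina3m stayed out with 0.999.

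All 3 lines of the study, which the text calls WT, AP3 and KD after the H2A.Z they express or lose, were sampled at D0 and D3 with 1 library each, so no value below has a replicate error and no difference was tested. The labels give the strain as V6.5 (129SvJaexC57BL/6), and the transgenic lines were made in KH2 ESCs. The WT and AP3 lines express H2AZ-YFP or AP3-YFP from a lentiviral CMV promoter induced by doxycycline, and were sorted for YFP. AP3 carries the residues of H2A at 3 positions of the acidic patch (G92N, D97N and S98K). Both lines also carry hairpins against the endogenous H2AZ transcript. By the methods of the study the hairpins went into lines that already held an inducible transgene, so the line labelled KD may hold one that was not induced, which its labels do not say. ESCs were grown with LIF on irradiated embryonic fibroblasts and without them for the last passage. D3 cells were embryoid bodies (EBs), formed without LIF on plates to which cells do not adhere. The labels call the D3 samples ES cells as well, and their EB culture is taken from the methods of the study. Nothing in the labels says how many clones or cultures stand behind a library.

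The 2 hairpin oligos are shown because this knockdown underlies the lines and because both lie outside the coding sequence that the transgenes supply. Which of them a line carries is not stated in the labels, whose names for the oligos are used here and differ from those in the methods of the study.
sh#2: aacagctgtccagtgttggtg
sh#5: aattagccttccaaccaacca
Both matched mm9 chromosome 3 exactly, in the 3′ UTR of H2afz on its plus strand, at chr3:137529455-137529475 and chr3:137529551-137529571. H2afz, the gene of H2A.Z, was at 304 RPKM in AP3 ESCs and 394 in AP3 EBs, a change of 0.37. It was at 279 and 258 RPKM in WT, and at 343 and 236 in the line labelled KD. At D0 the knockdown label therefore goes with the highest level of the 3, and that sample is called the library labelled KD throughout. The gene value cannot tell the endogenous transcript from a transgene. H2afv, which encodes the second H2A.Z isoform, was at 54.4 and 63.3 RPKM in AP3.

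H2A.Z is a histone H2A variant found at promoters and enhancers, and its acidic patch is the negatively charged surface of the nucleosome to which other proteins bind. When LIF is withdrawn and ESCs aggregate, naive pluripotency genes go down, epiblast genes go up, and the outer cells of the aggregate form primitive and visceral endoderm on a basement membrane. Nodal signalling, restrained by its own targets Lefty1 and Lefty2, acts in the epiblast at this stage.

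Between D0 and D3, 227 genes of the AP3 line were at least 2-fold higher (1.86% of those tested) and 439 were at least 2-fold lower (3.6%). Over all genes tested the median change was 0.03. In WT, 2.34% of 12240 genes were higher and 2.77% lower, and in the library labelled KD, 2.48% of 12184 were higher and 2.86% lower. Beyond 4-fold, 30 genes rose and 78 fell in AP3, and beyond 8-fold 6 rose and 16 fell. The excess of lower genes stood in genes below 100 RPKM. Of the 3557 genes with 1 to 5 RPKM, 4.86% fell and 2.00% rose, while of the 731 genes at 100 RPKM or more, 1.23% fell and 2.05% rose. From the spacing of low values the depth was estimated at 30.2 M reads for AP3 ESCs and 22.7 M for AP3 EBs. Small RNA genes made up 157 of the genes tested, 38 of the risers and 37 of the fallers, and are not named below.

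**Figure D1:**
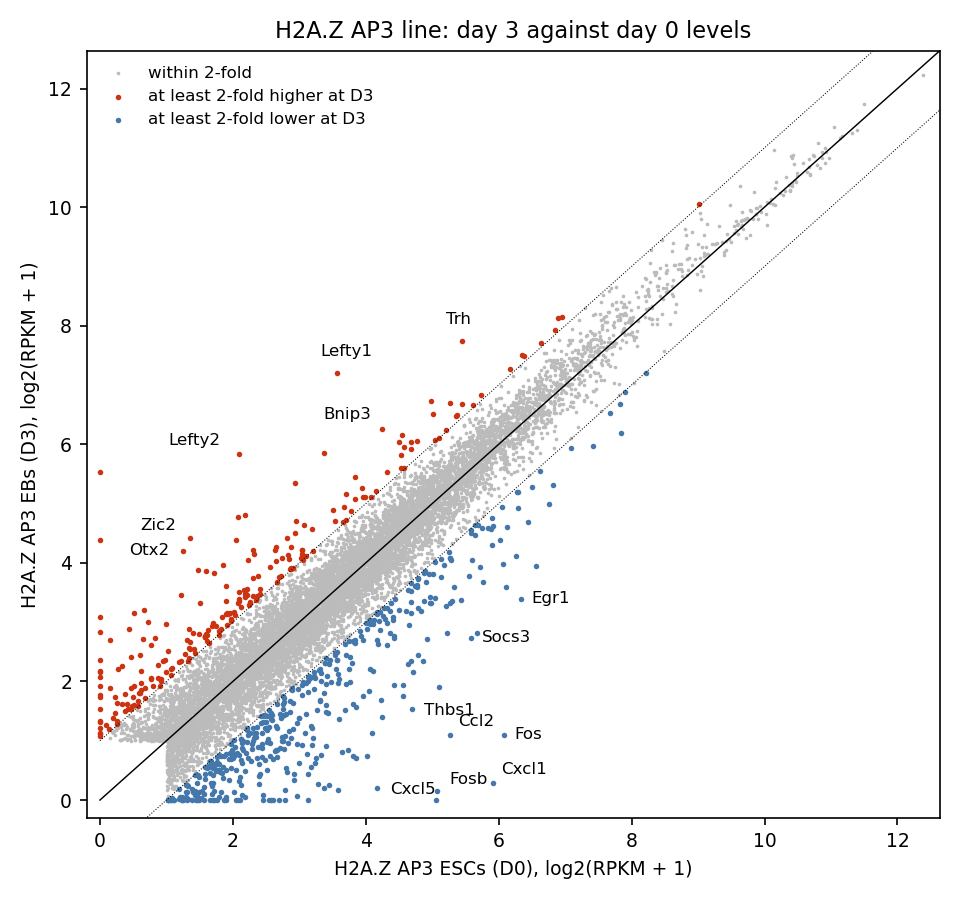
AP3 ESCs (D0, x axis) against AP3 EBs (D3, y axis), both as log2(RPKM + 1), for the 12204 genes tested, 1 library per axis. Red points are the 227 genes at least 2-fold higher at D3, blue points the 439 at least 2-fold lower, dotted lines mark 2-fold; Cxcl1, Fos and Fosb lie furthest below the diagonal of the genes labelled.

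The libraries ranked by day before line. Across 12702 genes, Pearson's r of log2(RPKM + 1) was 0.985 to 0.987 between the 3 EB libraries and 0.961 between AP3 ESCs and EBs. Between ESC libraries it was 0.987 for WT and the library labelled KD, but 0.980 and 0.975 for AP3 with each of them. The AP3 ESC library thus stood further from the other lines than the AP3 EB library did. Of the genes that fell in AP3, 82.7% were at their highest ESC level in AP3, against 41.6% of all genes tested. Of the genes that rose, 67.0% had their lowest ESC level in AP3, against 35.8%. Among EBs, AP3 had the highest level in 37.3% of all genes tested and the lowest in 33.4%. For the genes that rose these EB shares were 51.1% and 19.8%, and for those that fell 33.5% and 36.7%. Since the AP3 D0 and D3 values enter both the change and these rankings, the shares are a description of where the change sits.

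Pluripotency genes came first in the lists described, and the core genes did not move beyond 2-fold. Of the 12 core genes, which include the transcription factors that hold the ESC state, 0 rose and 0 fell, with a median change of 0.25. Pou5f1 (Oct4) was at 540 RPKM at D0 and 456 at D3, and Sox2 was at 110 and 160. The entry for Nanog, which the table joins with Nanogpd, was at 73.9 and 91.8. All 3 were thus still expressed at high levels in AP3 EBs.

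Of the 20 naive pluripotency genes, 5 fell and 0 rose, and the median change was −0.51. Socs3, a feedback inhibitor induced by LIF through Stat3, fell from 47.1 to 5.65 RPKM (−2.85). Tfcp2l1, listed as Tcfcp2l1, a transcription factor downstream of LIF, fell from 68.3 to 11.0 (−2.52). Klf4 fell from 65.9 to 14.9 (−2.08). The other 2 were Stat3 and Klf5. In WT 3 of the 20 fell, and in the library labelled KD 5 did. Tfcp2l1 had its highest ESC level and its lowest EB level in AP3, with 42.8 and 18.2 RPKM in WT. Klf2, another naive factor, was at 41.1 RPKM in AP3 ESCs and 123 in WT ESCs, and its change was −0.30 against −0.96.

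Formative and primed epiblast genes, which mark the step out of the naive state, moved furthest upward as a list. Of 17 genes 13 rose and 0 fell, and the median change was 1.54, against 1.04 in WT and 0.99 in the library labelled KD over the same genes. The number that rose was 10 in WT and 8 in the library labelled KD. Zic2, a zinc finger transcription factor, rose from 1.57 to 20.4 RPKM (3.06). Otx2, a homeobox factor of the epiblast and anterior brain, rose from 1.37 to 17.5 (2.96). Fgf5, the usual marker of the post-implantation epiblast, rose from 0.106 to 5.51 (2.56). Dnmt3b, a de novo DNA methyltransferase, rose from 30.7 to 105 (1.74). The remaining 4 genes, Foxd3, Cdh2, Sox4 and Dnmt3a, had changes of 0.41 to 0.63.

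For Zic2 the lines parted at D0 and met at D3. It was at 9.76 RPKM in WT ESCs and 6.51 in the library labelled KD, and at 18.0 and 15.95 in their EBs. Over the list AP3 had the lowest ESC level of the 3 lines in 12 of 17 genes, while its EB level was the highest in 8 and the lowest in 5, shares that lie near those of all genes. The median log2 level in AP3 over WT was −0.20 in ESCs and 0.11 in EBs.

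Nodal and its relatives are secreted ligands of the TGF-beta family, Tdgf1 (Cripto) is their co-receptor, Foxh1 and Smad2 act in the nucleus, and Lefty1 and Lefty2 are targets. Of 15 genes of this pathway 3 rose and 0 fell, with a median of 0.52, and Lefty1 and Lefty2 were among the 3. Lefty2, an inhibitor of Nodal, rose from 3.27 to 56.3 RPKM (3.74). It was at 22.1 and 52.7 in WT, and at 21.3 and 57.1 in the library labelled KD. Its ESC level in AP3 was therefore the low value among 6 libraries, and the EB levels lay close together.

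Lefty1, its neighbour and close relative, rose from 10.9 to 147 RPKM (3.63). It was at 47.8 and 95.1 in WT, and at 68.4 and 75.1 in the library labelled KD. AP3 thus held both the lowest and the highest value of the 6. Lefty1 lies at chr1:182865170-182868532 and Lefty2 at chr1:182823250-182829233 on mm9, and reads may have been shared between these similar genes. The ligand Nodal itself was at 10.4 and 16.4 RPKM (0.61), Foxh1 at 26.1 and 39.2 (0.57), and Tdgf1 at 406 and 331 (−0.29). Both Lefty genes rose, while Nodal, Foxh1 and Tdgf1 stayed within 2-fold.

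**Figure D2:**
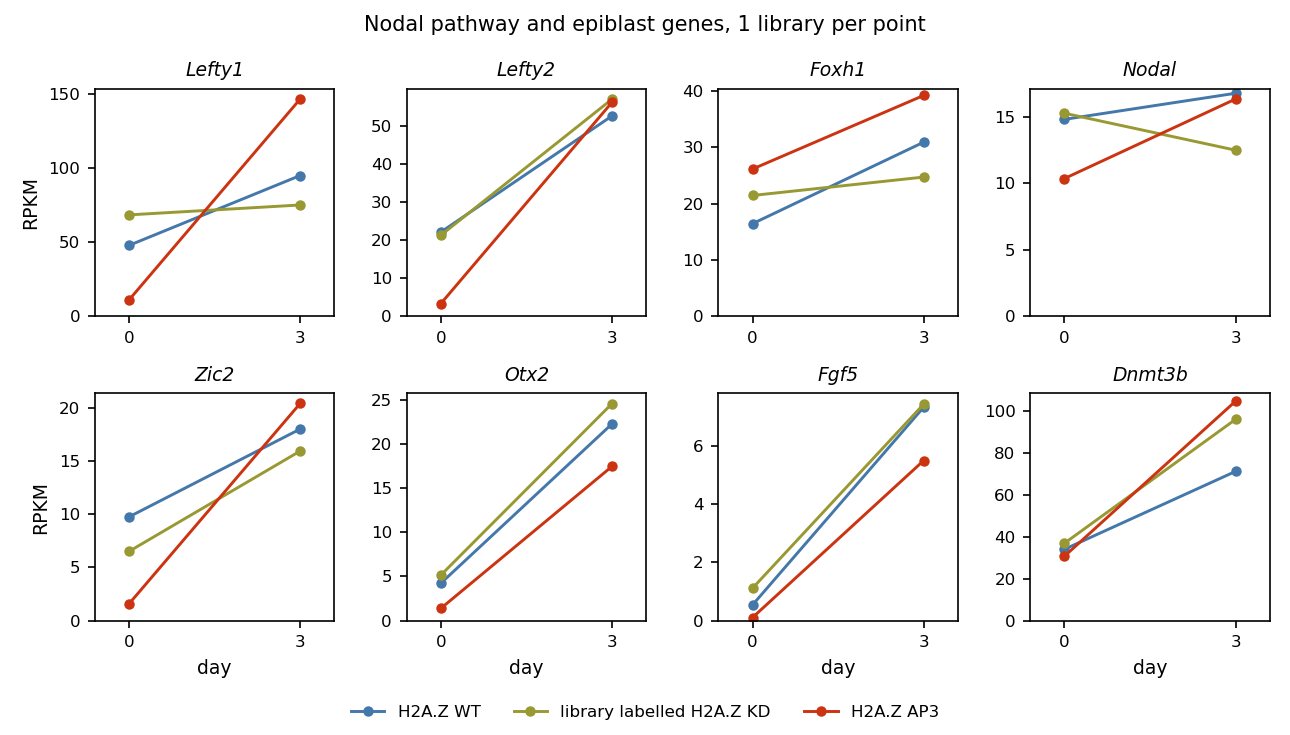
RPKM (y axis) at day 0 and day 3 (x axis) of 4 Nodal pathway genes and 4 epiblast genes in the WT line (blue), the library labelled KD (olive) and AP3 (red), each point 1 library. Lefty1, Lefty2 and Zic2 start lowest in AP3 ESCs, at 10.9, 3.27 and 1.57 RPKM, and at day 3 lie beside or above the other lines.

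Few genes of later lineages were expressed. Of 23 primitive streak and mesoderm genes only 9 were tested, and Lefty2 alone rose. Eomes, a T-box factor of the streak, was at 1.72 RPKM in AP3 EBs. Of 38 Hox genes 6 were tested and Hoxb9 fell, from 2.85 to 0.624 RPKM. Its change was −1.25 in AP3, −1.14 in WT and −1.18 in the library labelled KD. Among 8 neural genes tested, Sox1 rose from 3.53 to 9.70 and Pax6 from 2.81 to 7.80, both regulators of neural progenitors, while Neurod1 fell from 11.8 to 1.87. Neither Sox1 nor Pax6 passed 2-fold in WT, where their changes were 0.84 and 0.45. Of 9 trophectoderm genes Krt18 and Igf2 rose, and Krt18, a simple epithelial keratin, went from 14.4 to 37.3.

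Of 10 endothelial genes tested, 3 rose in AP3. Cdh5, the cadherin of endothelial junctions, rose from 0.148 to 1.60 RPKM, Sox18 from 0.392 to 1.99 and Etv2, a factor at the start of the endothelial lineage, from 0.345 to 1.89. Kdr, the VEGF receptor, was at 0.188 and 1.36 (0.99). In WT EBs these 4 genes were at 0.248, 0.206, 0.568 and 0.142 RPKM. All 4 were below 1 RPKM in the other 5 libraries and passed the filter through the AP3 EB library alone, so their number that rose is not set against the other lines. Of the other 6 genes tested 0 rose in any line. AP3 had the highest EB level of the 3 lines in 15 of the 18 listed genes. All these levels were low, and with 1 EB library per line the spread between cultures is unknown.

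The endoderm genes changed less in AP3 than in the other lines. Of 9 endoderm transcription factors tested, 2 rose in AP3, among them Sox7 (1.68 to 4.56 RPKM, 1.05), and 8 rose in each of the other lines. The median change was 0.67 in AP3, 1.43 in WT and 1.78 in the library labelled KD. In 9 of 9 genes the change was smaller in AP3 than in both other lines.

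Gata4 and Gata6, the factors that set up primitive endoderm, show the pattern. Gata4 was at 12.1 RPKM in AP3 ESCs and 13.3 in its EBs (0.14). It was at 3.24 and 13.7 in WT, and at 4.94 and 23.2 in the library labelled KD. The ESC value of AP3 was close to the EB values of AP3 and WT. Gata6 was also highest in AP3 among the ESCs and closer in the EBs of AP3 and WT, with 9.84 and 12.3 RPKM in AP3 (0.30) and 2.96 and 11.1 in WT. Sox17 went from 2.70 to 4.96 RPKM (0.69), against 0.974 to 5.84 in WT.

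Visceral endoderm effectors, the transport and secreted proteins of that epithelium, did rise. Of 14 genes tested 9 rose and 0 fell, with a median of 1.07, against 1.5 in WT and 2.81 in the library labelled KD. Spink3, a protease inhibitor, rose from 3.54 to 27.1 RPKM (2.63). Dab2, an endocytic adaptor, rose from 22.4 to 70.3 (1.61). Amn and Cubn, which together form an endocytic receptor, rose from 5.22 to 17.6 (1.58) and from 12 to 34.6 (1.45). Ttr, a thyroid hormone carrier, was listed at 0 at D0 and at 1.10 RPKM at D3. Apoe, the apolipoprotein, was at 846 and 712 RPKM (−0.25), while in WT it rose from 459 to 1009. All 14 signed changes lay below those in both other lines, though for Apoa2 (−0.66 against −0.65 in WT) and Trf (−0.31 against 0.08) this was a larger change in size. With no filter the median over the 20 listed genes was 0.69, under 2-fold, and the summed level of the 20 listed genes at D0 was 963 RPKM in AP3, 526 in WT and 482 in the library labelled KD.

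Basement membrane genes encode the type IV collagens, laminins, nidogens and the enzymes that fold and modify collagen. In AP3, 0 of 17 rose and 1 fell, with a median change of −0.10. In WT 8 rose with a median of 0.88, and in the library labelled KD 10 rose with a median of 1.44. Col4a1, a chain of type IV collagen, was at 52.4 RPKM at D0 and 78.4 at D3 (0.57), against 15 and 90.9 in WT (2.52). Lama1, a laminin chain, was at 65.2 and 64.7 (−0.01), against 17.3 and 69.0 (1.94). Sparc, a matrix glycoprotein, was at 237 and 249 (0.07), against 98.3 and 296 (1.58). Nid1, a nidogen, fell from 30.2 to 9.74 (−1.54).

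In these genes AP3 stood out at D0. AP3 had the highest ESC level of the 3 lines in 16 of the 17 basement membrane genes and the lowest EB level in 15. Their summed level was 1072 RPKM in AP3 ESCs, 599 in WT ESCs and 614 in the library labelled KD, and 1006, 1148 and 1591 at D3. In bulk RNA, more endoderm cells in the AP3 ESC culture and more of these transcripts per cell cannot be told apart.

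**Figure D3:**
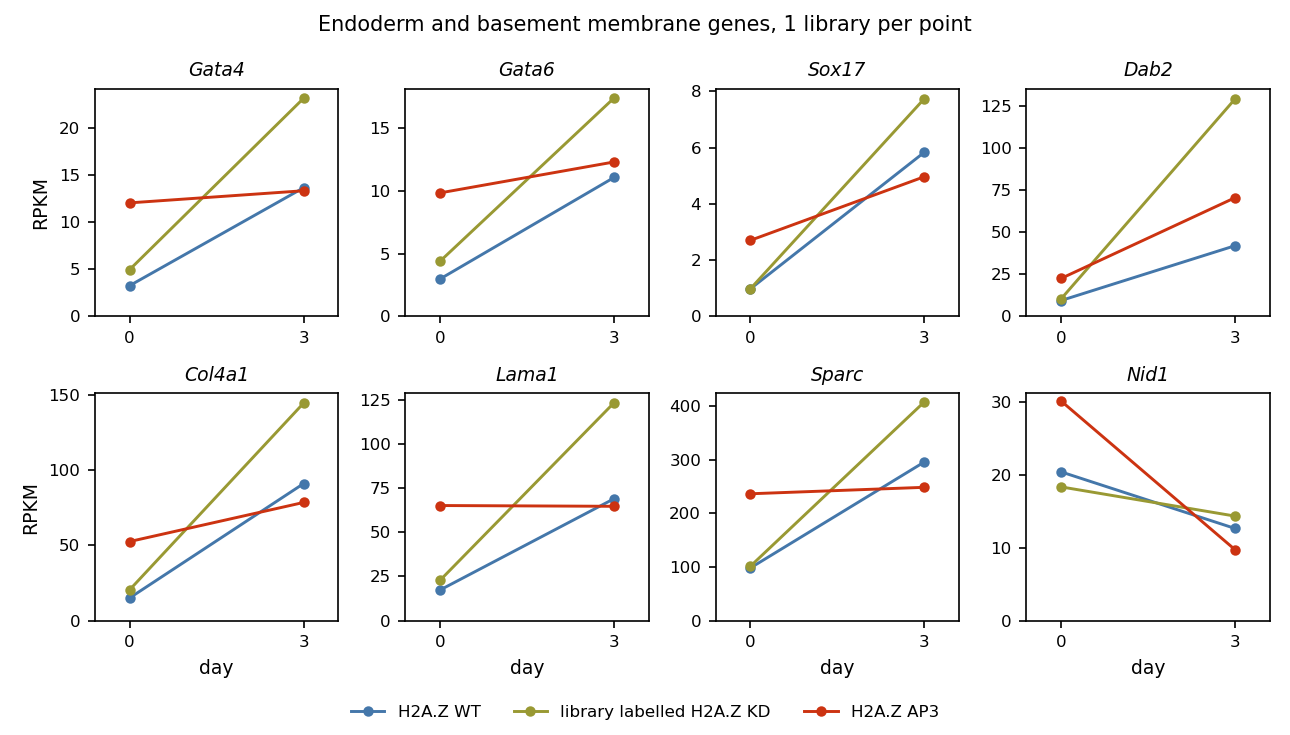
RPKM (y axis) at day 0 and day 3 (x axis) of 4 endoderm and 4 basement membrane genes in the WT line (blue), the library labelled KD (olive) and AP3 (red), each point 1 library. At day 0 AP3 is the highest line in every panel, and for Gata4, Lama1 and Sparc its line is nearly flat (12.1 to 13.3, 65.2 to 64.7 and 237 to 249 RPKM).

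Chemokine and inflammatory genes fell most in AP3. Of 17 tested 16 fell and 0 rose, with a median of −2.20, against −0.85 in WT, where 8 fell, and −1.10 in the library labelled KD, where 11 fell. In 17 of 17 the fall or decrease was larger in AP3 than in both other lines. Il6 and Lcn2 passed the filter through the AP3 ESC library alone, so a lower AP3 level at D3 was built in for both. Without them 14 of 15 fell, with a median of −2.20, against −1.48 in WT and −1.27 in the library labelled KD, and the decrease was larger in AP3 in 15 of 15. Cxcl1, a neutrophil chemokine, fell from 59.3 to 0.226 RPKM (−5.62), and was at 8.94 in WT ESCs and listed at 0 in WT EBs. Ccl2, a monocyte chemokine, fell from 37.6 to 1.15 (−4.17), and Cxcl5 from 17.0 to 0.148 (−3.97). Lcn2, an iron-binding protein of the acute phase, was at 7.75 RPKM in AP3 ESCs and listed at 0 in the other 5 libraries. AP3 had the highest ESC level of the lines in 17 of the 19 listed genes.

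NF-κB is the factor through which inflammatory signals act on many of these genes. RefSeq promoter windows (250 bases before to 50 after the start, GRCm38.p6) were at hand for 14 of the listed genes, and 8 of the 14 held the NF-κB consensus on either strand (57.1%), against 5.14% of all 27025 genes with a window and 6.48% of those tested here. The windows of genes that fell and have entries held it in 11.4% of cases. The list was chosen for inflammatory roles and holds NF-κB targets such as Nfkbia, so a high share was built in. That share is no result about the AP3 change, and the 14 genes were not limited to those that fell. The genes that fell include members of the list. A match is a description of letters, not of binding. The 4 stretches below are from genes that fell, with the match in capitals.
Cxcl1: ctgtactccGGGAATTTCCctggcccgg
Cxcl10: ggtttacagGGGACTTCCCtcgggttgc
Csf1: ggccttgagGGAAAGTCCCtaggggcca
Nfkbia: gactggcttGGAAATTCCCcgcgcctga
They lie at chr5:90891165-90891192 (plus strand), chr5:92348974-92349001 (minus), chr3:107760605-107760632 (minus) and chr12:55492658-55492685 (minus) on GRCm38.p6, and each is written along the strand of its gene. Nfkbia, which encodes the NF-κB inhibitor and is itself a target, fell from 50.6 to 23.8 RPKM (−1.06). In WT it was at 33.7 and 44.9 (0.40).

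Fibroblast genes moved in the same direction. Of 16 tested 12 fell and 0 rose, with a median of −1.32, against −1.04 in WT and −1.08 in the library labelled KD. Col5a2 and Dcn passed the filter through the AP3 ESC library alone, so a lower AP3 level at D3 was built in for both. Without them the medians were −1.40, −1.14 and −1.18. Col1a2 and Col1a1, the chains of type I collagen, fell from 22.5 to 2.36 RPKM (−2.80) and from 15.5 to 2.57 (−2.21). Thbs2, a thrombospondin of the matrix, fell from 13.0 to 0.673 (−3.06), and Lox, which cross-links collagen, from 6.58 to 0.357 (−2.48). The summed level of the 19 genes found was 107 RPKM in AP3 ESCs, 69.3 in WT ESCs and 55.7 in the library labelled KD. At D3 it was 20.5, 20.9 and 12.4. ESCs were grown on fibroblasts until the last passage, and fibroblasts also express several of the chemokines above. The part of remaining fibroblasts in either list was not tested.

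**Figure D4:**
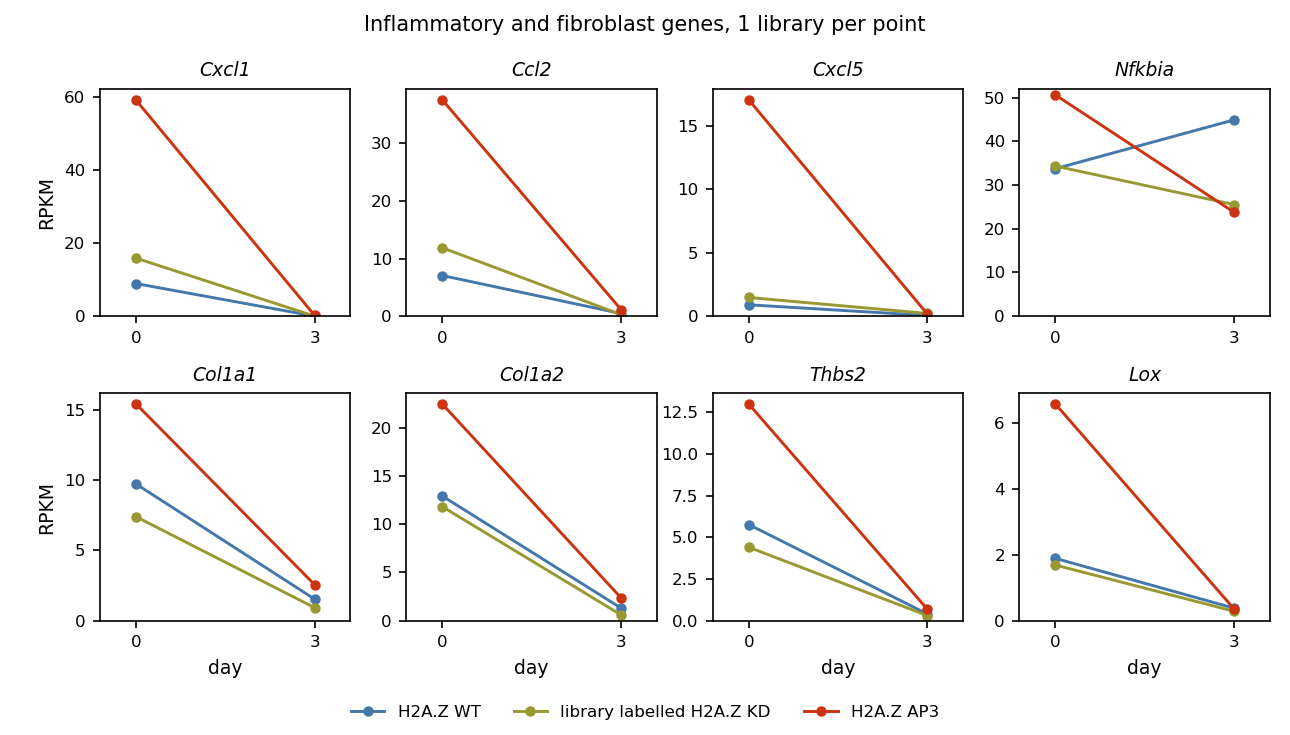
RPKM (y axis) at day 0 and day 3 (x axis) of 4 inflammatory and 4 fibroblast genes in the WT line (blue), the library labelled KD (olive) and AP3 (red), each point 1 library. AP3 ESCs are highest in each panel, and by day 3 the lines lie close together on these axes except for Nfkbia, where WT is at 44.9 RPKM and the other lines at 23.8 and 25.5.

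Immediate early genes, switched on within minutes by ERK signalling, were among the largest decreases in all lines. Of 18 genes of the FGF and ERK response list 5 fell in AP3 and 8 in each of the other lines, with medians of −0.19, −0.75 and −0.84. Fos fell from 66.3 to 1.15 RPKM (−4.97), against 149 to 1.99 in WT, and its partner Fosb, ranked outside the list, from 32.7 to 0.117 (−4.92). Egr1 fell from 79.5 to 9.52 (−2.94), against 146 to 5.27 in WT (−4.55). Etv4, an ETS factor induced by FGF, fell from 68.7 to 23.4 (−1.52). Myc was at 6.59 and 5.61 RPKM (−0.20), while in WT it fell from 6.50 to 1.70. Spry4, a feedback inhibitor of FGF receptors, was at 26.3 and 24.3 (−0.11), against 26.7 and 14.3 in WT. AP3 had the highest EB level of the lines in 14 of the 18.

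Glycolysis and hypoxia genes shifted upward. Of 25 tested 6 rose and 0 fell, with a median of 0.76, against 0.52 in WT and 0.42 in the library labelled KD, where 2 rose in each. Slc16a3, the lactate exporter, rose from 9.39 to 57.1 RPKM (2.48), and Bnip3, a mitophagy receptor induced by hypoxia, from 17.9 to 75.3 (2.01). Egln3, an oxygen-sensing hydroxylase, rose from 7.36 to 23.8 (1.57), and Slc2a1, the glucose transporter GLUT1, from 118 to 279 (1.23). The enzymes Tpi1 and Aldoa were the other 2. Ndufa4l2, ranked outside the list and also induced by hypoxia, rose from 0.356 to 6.41 (2.45). Vegfa, another target of the hypoxia-inducible factors, was at 32.8 and 19.6 (−0.72). AP3 had the lowest ESC level of the lines in 18 of the 25.

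The hypoxia-inducible factors bind the letters ACGTG, a core that also occurs inside the E-box CACGTG. Of 21 listed genes with a RefSeq promoter window 15 held it on either strand (71.4%), against 21.8% of all genes with a window and 30.2% of those tested here. It was in 34.1% of the windows of genes that rose, a share close to that of the genes tested. The list was chosen for roles in glycolysis and hypoxia, so a high share was built in. That share is no result about the AP3 change. Vegfa, which did not rise, held the core too. The stretches below are from 4 genes of the list that rose, with the core, or its complement CACGT, in capitals.
Slc16a3: aggcagcggtgACGTGcgcgggggacgt
Bnip3: cgcacgcgccgCACGTgccacacgctcc
Egln3: gtgcatctcagACGTGagatccaggttt
Slc2a1: tcccgccccggACGTGctccccaggccc
They lie on GRCm38.p6 at chr11:120949029-120949056 (plus strand), chr7:138909598-138909625 (minus), chr12:54204087-54204114 (minus) and chr4:119108698-119108725 (plus). Only the Bnip3 match is part of a CACGTG.

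Sterol synthesis genes, which are switched on together when cells lack cholesterol, set AP3 apart from WT. In AP3 0 of 24 passed 2-fold, with a median of −0.31. In WT 13 fell, with a median of −1.06, and in the library labelled KD 4 fell, with a median of −0.74. Idi1, an isomerase of the pathway, was at 51.4 and 50.8 RPKM (−0.02) in AP3, and fell from 72.1 to 27.7 in WT. In 21 of 24 genes the change lay above that in WT. Summed over the list, levels were 990 and 751 RPKM in AP3, 1055 and 517 in WT, and 1330 and 759 in the library labelled KD.

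Stress genes fell in part. Of 22 targets of ATF4, the factor of the amino acid response, 7 fell and 0 rose, with a median of −0.53. Atf3 fell from 18.0 to 1.65 RPKM (−2.84), Trib3 from 39.0 to 11.1 (−1.72), and Asns, asparagine synthetase, from 296 to 147 (−1.0). AP3 ESCs had the highest ESC level in 17 of the 22. In WT 1 of the 22 rose and 2 fell, with a median of −0.35. In the library labelled KD 6 fell, with a median of −0.69. Nupr1, a stress-induced nuclear protein, fell from 76.0 to 16.4 in AP3 (−2.15). It was at 19.6 and 22.7 in WT and at 27.8 and 11.3 in the library labelled KD. Of 18 p53 targets 6 fell and 0 rose, with a median of −0.67. Perp fell from 24.5 to 4.06 (−2.33), and Cdkn1a, the cyclin-dependent kinase inhibitor p21, from 57.9 to 22.9 (−1.30). The p53 median was −0.44 in WT, where 6 fell, and −0.48 in the library labelled KD, where 3 fell. Fas passed the filter through the AP3 ESC library alone, so a lower AP3 level at D3 was built in for it. Without Fas 5 of 17 fell in AP3. The medians were then −0.64 in AP3, −0.51 in WT and −0.42 in the library labelled KD.

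Of 15 BMP pathway genes 3 fell and 0 rose, with a median of −0.19. Grem1, a BMP antagonist, fell from 16.2 to 3.52 RPKM (−1.93) and the ligand Bmp4 from 12.6 to 2.95 (−1.78). Id2 was the third. In WT 1 of the 15 rose and 4 fell, with a median of −0.08. In the library labelled KD 1 rose and 3 fell, with a median of −0.24. Of 11 Wnt genes Lef1, a nuclear effector, rose from 0.210 to 3.61 (1.93), and Cdx1 fell from 3.24 to 0.249 (−1.76). Of 18 epithelial and mesenchymal genes the tight junction gene Cldn6 rose from 21.6 to 64.4 (1.53), while Vim, an intermediate filament of mesenchymal cells, fell from 107 to 30.9 (−1.76) and the matrix protease Mmp2 from 15.7 to 7.17 (−1.03). Of 14 smooth muscle and SRF target genes Cyr61 and Ctgf fell, from 93.7 to 14.4 (−2.62) and from 64.0 to 19.9 (−1.63). In WT 4 of these 14 fell, and in the library labelled KD 3. Of the Wnt genes 1 rose and 2 fell in each of these lines. Of the epithelial and mesenchymal genes 1 rose and 1 fell in each.

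Polycomb and H2A.Z genes stayed within 2-fold. None of 28 Polycomb genes and none of 15 genes of H2A.Z and its exchange passed 2-fold, with medians of −0.07 and 0.27. Of 11 DNA methylation genes Dnmt3b rose, and Zfp57, which protects imprints, fell from 170 to 61.9 RPKM (−1.44), as did Tet2, from 17.4 to 7.10 (−1.18). Of 24 imprinted genes Nnat, Snrpn and Igf2 rose, and the noncoding H19 fell from 17.7 to 2.21 (−2.54). Of 16 germline genes Prdm1 rose, and Hormad1 and Mael fell. Both tested genes of the two-cell-like state stayed within 2-fold. The median of 41 ribosomal protein genes was 0.01, against 0.35 in WT. That of 27 NADH dehydrogenase and ATP synthase genes was 0.07 and that of 11 MHC class I genes −0.14, and in all 3 lists 0 genes passed 2-fold.

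Replication-dependent histone genes did not fall in AP3. Of 18 tested 0 passed 2-fold, with a median of 0.16, against −0.50 in WT and −1.02 in the library labelled KD, where 10 fell. Hist1h2ad was at 61.5 and 78.3 RPKM in AP3. AP3 had the lowest ESC level in 24 of the 25 listed genes and the highest EB level in 21. These transcripts mostly lack poly(A) tails and are near-identical copies, so reads may have been split between them. Of 23 cell cycle genes the cyclin genes Ccnd3 and Ccnd2 fell, from 112 to 38.7 (−1.51) and from 9.97 to 4.12 (−1.10), besides Cdkn1a. Of 12 house-keeping genes 0 passed 2-fold in AP3, with a median of 0.19, against −0.04 in WT and −0.04 in the library labelled KD.

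**Figure D5:**
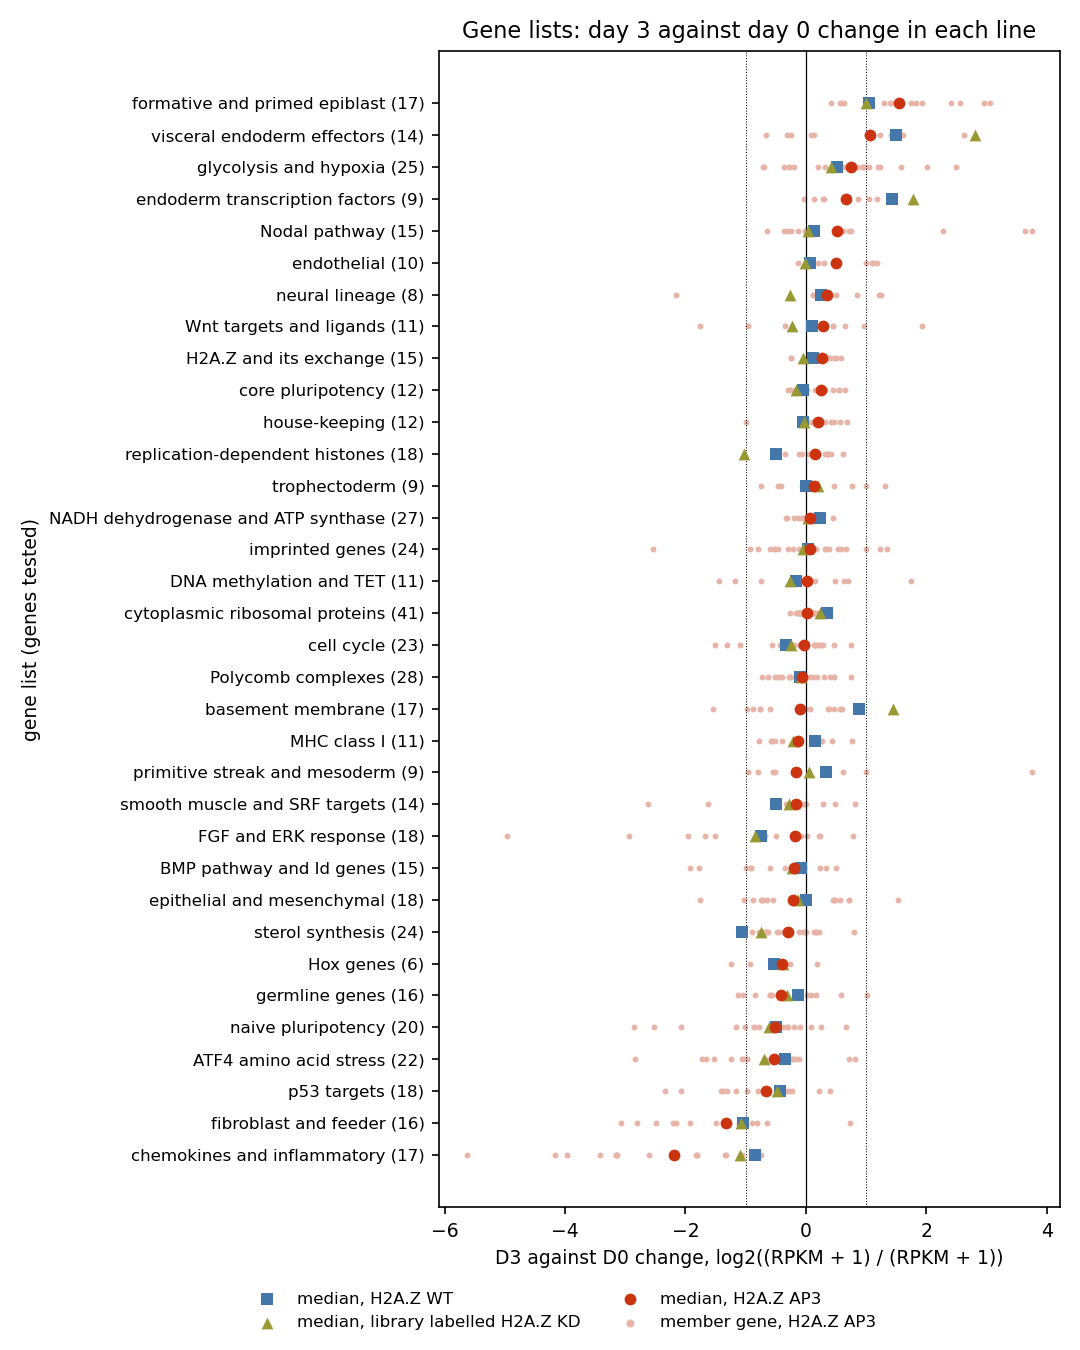
Change from D0 to D3 (x axis, log2 of (RPKM + 1) ratios) of the gene lists with at least 5 genes tested (y axis, number of genes in brackets). Pale points are member genes in AP3. Large symbols are medians in AP3 (circles), WT (squares) and the library labelled KD (triangles), 1 library per line and day. Among the lines, the AP3 median is the lowest for endoderm, basement membrane, chemokine and fibroblast genes, besides other lists. It is the highest for formative epiblast and sterol synthesis genes, besides other lists.

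By size of change, the 15 largest increases among genes with at least 5 RPKM in either AP3 library included Lefty2, Lefty1, Zic2, Otx2, Vrtn, Spink3, Fgf5, Tcfec, Slc16a3, Ndufa4l2, Pim2, Trh, Rab25 and Mup6. Trh, the precursor of thyrotropin-releasing hormone, rose from 42.8 to 214 RPKM (2.29). Pim2, a kinase gene, rose from 6.61 to 39.5 (2.41). Mup6 belongs to a family of near-identical major urinary protein genes, and its value is uncertain. The 15 largest decreases were Cxcl1, Fos, Fosb, Ccl2, Cxcl5, Ccl5, Fgf7, Emp1, Cav1, Thbs1, Vcam1, Ccl7, Lcn2, Thbs2 and Cp. Thbs1, a matrix thrombospondin, fell from 24.9 to 1.90 RPKM (−3.16), and Cav1, the coat protein of caveolae, from 9.87 to 0.196 (−3.18).

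The lines were then compared by their changes, which share no library. Of the 227 genes that rose in AP3, 97 also rose in WT, which is 42.7% of the one set and 33.8% of the other. In the library labelled KD 78 rose, 34.4% and 25.8%. Of the 439 that fell, 169 fell in WT, 38.5% and 49.9%, and 158 in the library labelled KD, 36% and 45.4%. In all 3 lines 64 genes rose and 121 fell. Of all genes tested in WT 2.34% rose and 2.77% fell, and in the library labelled KD 2.48% and 2.86%. Among the AP3 risers the median change was 1.24 in AP3 and 0.82 in WT, and among the fallers −1.34 and −0.81. These genes were chosen by their change in AP3, so larger medians in AP3 were built in. The medians are no measure of which line changed more. Across the 12204 genes, Pearson's r of the changes was 0.598 between AP3 and WT, 0.493 between AP3 and the library labelled KD, and 0.692 between the latter 2 lines. Genes are not independent replicates, and these values describe the libraries.

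The difference of the changes, AP3 minus WT, was past 2-fold in 155 of 12540 genes upward (1.24%) and 280 downward (2.23%). Without small RNA genes the upward count was 88, and with at least 5 RPKM required it was 72. Against the library labelled KD it was 260 upward (2.07%) and 404 downward (3.22%) of 12533. Among the 280 genes, the lines were further apart at D0 than at D3 in 200 (71.4%), against 54.5% of all genes tested. Among the 155 genes this was so in 83 (53.5%), a share near that of all genes. Against the library labelled KD it was so in 71.9% of the 260 upward genes and 66.8% of the 404 downward. The share of all genes tested there was 56.3%. For the 280 genes the median level in AP3 over WT was 0.87 in ESCs and −0.38 in EBs, on the log2 scale. For the 155 genes, small RNA genes included, it was −0.65 in ESCs and 0.67 in EBs. Genes of chromosome 6, where Col1a2, Peg10, Trh and Tpi1 lie, stood higher in AP3 as a group, with a median of 0.14 over WT in ESCs and 0.21 in EBs. Not every gene did so, and in ESCs Peg10 was at 48.7 RPKM in AP3 and 83.5 in WT, and Trh at 42.8 in both.

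The 10 largest upward differences were Tagln, Lefty1, Lefty2, Zic2, Igf2, 2900011O08Rik, Egr1, Epha2, Peg10 and Idi1. Tagln, an actin-binding protein of smooth muscle, was at 5.70 and 8.41 RPKM in AP3 (0.49) and fell from 16.4 to 2.80 in WT. Igf2, the imprinted growth factor, rose from 7.28 to 15.6 and fell from 17.8 to 7.23 in WT. Epha2, an ephrin receptor, was at 35.1 and 32.1 (−0.13) and fell from 61.6 to 20.1 in WT. The 10 largest downward differences were Lcn2, Cxcl5, Ccl5, Aqp8, Nupr1, Cxcl1, Slpi, 2810008D09Rik, C3 and Plac8. Aqp8, a water channel, was at 2.70 and 5.49 RPKM (0.81) and rose from 0.333 to 11.4 in WT. Plac8 fell from 11.1 to 3.11 (−1.56) and was at 3.11 and 4.56 in WT.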

How the data were processed

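RNA from 6 samples (3 lines at days 0 and 3, 1 library each) was sequenced by the authors. Per the submitters' processing notes, reads were aligned with TopHat 1.14 and Bowtie 0.12.7 to mouse mm9 and quantified with Cufflinks 1.3.0 and Cuffdiff; the paper's methods give another TopHat version. The deposited values are RPKM per gene, normalised by the authors to transcript length and mapped reads. The same table holds 6 columns of the authors' log2 ratios between samples, which were not used.

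Changes were computed here as log2 ratios of RPKM + 1 for genes with at least 1 RPKM in a compared library, and called past 2-fold. With 1 library per line and day, a change in AP3 alone has no residual spread to test against. A change common to the 3 lines could be fitted with line as a term and was not tested here. Total counts are not given in the sources used here. From the spacing of low RPKM values over 3696 single-transcript genes, depth was estimated at 30.2 M reads for AP3 D0 and 22.7 M for D3 (19.7 to 24.6 M for the others). One read on a 2 kb transcript is then worth 0.0184 and 0.0245 RPKM, so levels near 0.1 RPKM rest on few reads. The calls were tested on simulated data, which held counting noise and no spread between cultures.

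Gene lists (35, with 698 symbols, 691 entries found, 553 tested) and the members were chosen with earlier results of these data known. The 10 entries that join symbols were counted for each symbol, and 2 older symbols were matched by hand. Named genes were at most 4 per list with the largest change or level plus those that define the list, the 15 largest changes each way with at least 5 RPKM, and the 10 largest differences from WT each way, small RNA genes left out. A few further list members were named after their values were seen, and a few genes under the rule are not reported here. Calculations used pandas 2.3.3 and numpy 2.4.6 under Python 3.11.15, and figures matplotlib 3.10.9. Alternatives were other pseudocounts, filters, thresholds and scalings, entries summed per symbol, and small RNA genes left out.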

Additional observations from a re-analysis of the deposited data

Results flagged for a closer look

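Genes and lists are given here because the AP3 value from D0 to D3 lay on the other side of 0 from that of another line; with 1 library per sample none of these differences was tested. Igf2 rose in AP3 (1.00, 7.28 to 15.6 RPKM) and fell in WT (−1.19). Pmch, which was listed at 0 in AP3 ESCs and at 1.32 RPKM in its EBs (1.21 on the log2(RPKM + 1) scale), was at 1.05 RPKM in WT ESCs and at 0 in its EBs. The gene 9930013L23Rik fell from 6.35 to 1.07 RPKM in AP3 (−1.83) and rose from 1.10 to 3.36 in the library labelled KD. A further 11 small RNA genes were past 2-fold in opposite directions in AP3 and WT, and 13 in AP3 and the library labelled KD.

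Lists of at least 5 tested genes are given where the medians of AP3 and another line lay on opposite sides of 0 and at least 0.5 apart. The median of the basement membrane genes was −0.10 in AP3, 0.88 in WT and 1.44 in the library labelled KD. That of the replication-dependent histone genes was 0.16, −0.50 and −1.02. Against the library labelled KD alone, such medians were found for neural genes (0.35 and −0.27) and Wnt genes (0.29 and −0.23). The endothelial median also met this rule, at 0.50 in AP3, but 4 of its 10 genes passed the filter through the AP3 EB library alone, so its sign is not read against that of another line. Other lists differed in sign by less. Among them were core pluripotency genes (0.25, against −0.04 in WT and −0.16 in the library labelled KD). House-keeping genes were another such list (0.19, against −0.04 in WT and −0.04 in the library labelled KD).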

How the results depend on the processing

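No paired analysis was possible because the AP3 groups at D0 and D3 hold 1 library each and so share 1 pair only; a fit of day over all 3 lines, with line as a block, was not run. The counts depended on the handling of low values and little on the scaling. In AP3, 227 higher and 439 lower genes became 465 and 720 with a pseudocount of 0.1, 498 and 769 with 0.001, and 968 and 1145 at 1.5-fold. With at least 5 RPKM required, 266 fell. The difference from WT, 155 upward and 280 downward, became 383 and 567, 449 and 624, and 770 and 1051 under these 3 settings, 72 and 186 with the 5 RPKM filter, and 88 upward without small RNA genes. That from the library labelled KD, 260 and 404, became 506 and 754, 592 and 808, and 1044 and 1415, and 159 upward with the 5 RPKM filter. The other counts stayed within 1.5 times. Median ratio scaling moved the median of all genes in AP3 from 0.03 to −0.03. Among the list medians within 2-fold, MHC class I went from −0.14 to 0.21 and primitive streak from −0.16 to 0.22 with the 5 RPKM filter, and primitive streak to 0 and trophectoderm from 0.13 to −0.0045 with no filter. Median ratio scaling took those of trophectoderm, DNA methylation, imprinted, NADH dehydrogenase and ribosomal protein genes from 0.0095 to 0.13 down to −0.06 to −0.0032. No list median or ranked gene past 2-fold reversed; Igf2 dropped under 2-fold with median ratio scaling (0.94), and the visceral endoderm median was 0.69 with no filter. Leaving out genes past the filter in 1 AP3 library and in no other library, a choice made after seeing the data, kept the sign of the 8 list medians it touched. One library per condition leaves the spread between cultures unknown.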

Other observations

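Genes on chromosome 6 stood higher in the AP3 libraries as a group. Over 570 genes tested on this chromosome the median log2 level in AP3 over WT was 0.14 in ESCs and 0.21 in EBs, and over the library labelled KD it was 0.30 in both. On chromosome 8 the medians were 0.04 and 0.12 over WT and 0.05 and 0.10 over the library labelled KD. On the other 18 chromosomes they lay between −0.03 and 0.03 in ESCs and between −0.05 and 0.02 in EBs over WT, and between −0.01 and 0.06 and between −0.03 and 0.04 over the library labelled KD. The change from D0 to D3 in AP3 had a median of −0.02 on chromosome 6, close to that of all genes. Of the genes named above, Tcfec, Trh, Emp1, Cav1, Peg10, Col1a2, Tpi1, Asns, Ccnd2 and Nanog lie on chromosome 6. The X chromosome had a median change of 0.12 in AP3 and 0.12 in WT.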
